A study of Mus musculus with 60 samples.

Results

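The genes described here encode enzymes that build triglyceride and its precursors: the monoacylglycerol acyltransferases Mogat1 and Mogat2, the diacylglycerol acyltransferases Dgat1 and Dgat2, the glycerol-3-phosphate acyltransferase Gpam, the lysophosphatidate acyltransferase Agpat2, and the phosphatidate phosphatases Lpin1, Lpin2 and Lpin3. They were taken by symbol from the deposited expression tables, as 9 of the 54343 symbols listed, and each was described in every group of the 4 tables. Bulk RNA was sequenced from the liver and the inguinal white adipose depot of mice of 2 lines made obese by diet (DIO), giving 60 libraries. Each table holds 15 libraries, in 3 groups of 5 that the labels number as biological replicates. In the Glp1r line the groups were Glp1rfl/fl mice given mGIPR-Ab/P1, Glp1rWnt1-/- mice given vehicle, and Glp1rfl/fl mice given vehicle. In the Gipr line they were Giprfl/fl mice given mGIPR-Ab/P1, GiprSyn-/- mice given vehicle, and Giprfl/fl mice given vehicle. In mGIPR-Ab/P1 a peptide that acts on the GLP-1 receptor is joined to an antibody directed at the receptor of the gut hormone GIP, and it is called the conjugate from here on. All groups share the diet-induced obesity, and within a line all carry the floxed receptor gene, intact or deleted. The labels name the knockouts after Wnt1 and Syn and do not describe the driver further, and they give no age, dose or treatment time. By its title, the study asked whether the conjugate needs these receptors in the central nervous system to lower body weight. Knockout mice given the conjugate were not analysed here, so the tables show the effect of the conjugate in floxed mice and the effect of each knockout without it.

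Triglyceride is made along a pair of routes. In the glycerol-3-phosphate route, Gpam at the outer mitochondrial membrane adds an acyl chain to glycerol-3-phosphate, Agpat2 in the endoplasmic reticulum adds the next to give phosphatidate, and the lipins remove the phosphate to give diacylglycerol. In the monoacylglycerol route, Mogat1 or Mogat2 makes diacylglycerol directly from monoacylglycerol, a route best known from the intestine, where Mogat2 acts during fat absorption. Dgat1 and Dgat2, which belong to different gene families, add the final acyl chain in either route, and Dgat2 shares its family with Mogat1 and Mogat2. Loss of AGPAT2 in people causes a generalized lipodystrophy, loss of Lpin1 causes fatty liver and lipodystrophy in fld mice, and Mogat1 is known to be raised in the fatty livers of obese mice.

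Values are FPKM, which scale fragments to transcript length and to the size of the library, so levels of different genes can be set side by side. A fold change is a difference of log2(FPKM + 1) between group means, given with the standard error of the model, and it understates the change of genes near 1 FPKM. The threshold for a call was an adjusted p of 0.05 (limma, Benjamini-Hochberg), taken over all genes of the table that reached 1 FPKM in at least 5 of its 15 libraries. Of the 9 members, 8 passed this filter in each liver table, where Mogat2 did not, and all 9 passed it in each adipose table. Mogat1 passed it in Gipr-line liver through the vehicle group, with 2 conjugate, 0 knockout and 5 vehicle libraries at 1 FPKM or more.

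Estimated depth was 31.74 to 57.25 M fragments per liver library and 29.95 to 64.42 M per adipose library. Hepatocyte markers summed to at least 48090 FPKM in every liver library and adipocyte markers to at least 11170 FPKM in every adipose library. Glp1r reached at most 0.356 FPKM in any liver library and 0.0907 FPKM in any adipose library, and Gipr at most 0.0149 FPKM in liver, so neither checks its knockout there. In adipose of the Gipr line, Gipr was at 3.57 to 6.57 FPKM under the conjugate, 2.57 to 5.37 FPKM in GiprSyn-/- mice and 5.02 to 7.46 FPKM in vehicle mice. Some libraries stood apart. In the Gipr line, conjugate liver replicates 4 and 5, vehicle liver replicate 5, and replicate 5 of conjugate and GiprSyn-/- adipose have library numbers 20386 to 20391. The others of that line run from 20016 to 20054. A term for this split is called the library number series. These conjugate and GiprSyn-/- adipose libraries had estimated depths of 56.57 and 64.42 M fragments. In the Gipr-line livers, 11 pancreatic acinar markers summed to 3049 and 9894 FPKM in replicates 2 and 4 given the conjugate, 3577 FPKM in GiprSyn-/- replicate 1, and 4934 and 5278 FPKM in vehicle replicates 2 and 5. The mean log2(FPKM + 1) of 8 B cell markers was above 5 in conjugate replicate 1 and GiprSyn-/- replicates 1 and 5 of Gipr-line adipose, and in Glp1rWnt1-/- replicates 1 and 3 and vehicle replicate 2 of Glp1r-line adipose.

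Start regions are shown for Mogat1, Gpam and Agpat2, the members whose levels fell in at least 2 of the liver comparisons with vehicle described further on. Each run covers 250 bases before to 50 bases after a RefSeq transcription start on build GRCm38.p6, is printed 5′ to 3′ on the strand of the gene, and has matches to the motifs searched in capitals. RefSeq start regions were matched for 6 of the 9 members, and Gpam has 2 listed starts. The regions are Mogat1 at chr1:78510810-78511109 on the plus strand, Gpam at chr19:55127189-55127488 and chr19:55099428-55099727 on the minus strand, and Agpat2 at chr2:26604368-26604667 on the minus strand.
Mogat1: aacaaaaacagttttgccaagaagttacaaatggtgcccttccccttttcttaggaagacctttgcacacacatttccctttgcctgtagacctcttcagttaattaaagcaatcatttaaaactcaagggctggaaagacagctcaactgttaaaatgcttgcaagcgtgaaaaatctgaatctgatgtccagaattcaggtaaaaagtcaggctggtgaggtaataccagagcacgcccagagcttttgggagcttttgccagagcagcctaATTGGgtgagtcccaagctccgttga
Gpam, start 1: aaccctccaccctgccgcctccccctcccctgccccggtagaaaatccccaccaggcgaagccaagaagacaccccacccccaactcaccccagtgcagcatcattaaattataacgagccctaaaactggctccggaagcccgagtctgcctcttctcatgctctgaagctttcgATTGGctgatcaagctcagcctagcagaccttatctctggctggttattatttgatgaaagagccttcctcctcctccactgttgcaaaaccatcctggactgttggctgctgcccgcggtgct
Gpam, start 2: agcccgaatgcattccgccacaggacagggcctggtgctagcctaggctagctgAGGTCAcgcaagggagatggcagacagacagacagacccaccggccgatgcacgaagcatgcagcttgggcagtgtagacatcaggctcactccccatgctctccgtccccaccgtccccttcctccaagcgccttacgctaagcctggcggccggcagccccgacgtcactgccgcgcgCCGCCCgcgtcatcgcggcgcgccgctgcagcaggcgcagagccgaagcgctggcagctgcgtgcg
Agpat2: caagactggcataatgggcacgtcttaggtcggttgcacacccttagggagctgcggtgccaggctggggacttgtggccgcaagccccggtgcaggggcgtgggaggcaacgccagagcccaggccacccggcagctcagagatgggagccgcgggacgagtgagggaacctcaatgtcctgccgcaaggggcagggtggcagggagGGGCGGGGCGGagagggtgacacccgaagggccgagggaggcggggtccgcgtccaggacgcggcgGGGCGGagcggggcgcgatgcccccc

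The GC content of these windows was 43.7% for Mogat1, 55.7% and 68.0% for Gpam starts 1 and 2, and 72% for Agpat2, against a median of 52.7% over 32851 RefSeq start regions. Motifs were searched on both strands: the CCAAT box CCAAT (present in 37.4% of all start regions), the GC box GGGCGG (35.7%), the nuclear receptor half-site AGGTCA (16.3%), the E-box CACGTG (7.15%), the sterol element core TCACNCCAC (1.24%) and the DR1 element (0.0396%), which is the half-site repeated after 1 base of any kind. Mogat1 held a CCAAT box, read on the other strand, at 24 to 28 bases past the start. Gpam start 1 held a CCAAT box at -74 to -70, and Gpam start 2 a half-site at -196 to -191 and a GC box at -16 to -11. Agpat2 held 3 GC boxes, of which those at -42 to -37 and -37 to -32 share a base. The letters of the E-box, the sterol element core and the DR1 element were not in these windows.

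In vehicle livers Dgat2 was the most abundant member, at 213 ± 4.26 FPKM in the Glp1r line and 232 ± 12.4 FPKM in the Gipr line (SD, n = 5 each). Glp1r-line livers held Lpin2 (92.8 ± 14.2 FPKM), Agpat2 (88.1 ± 4.21 FPKM), Lpin1 (71.4 ± 31.6 FPKM) and Gpam (57.2 ± 16.04 FPKM) next, neighbours whose spreads overlap. Dgat1 (8.85 ± 0.421 FPKM) and Mogat1 (7.89 ± 3.04 FPKM) followed without differing beyond their spread, then Lpin3 (1.66 ± 0.288 FPKM) and Mogat2 (0.107 ± 0.0404 FPKM). The Gipr-line order after Dgat2 was Agpat2 (123 ± 12.3 FPKM), Gpam (82.2 ± 25.0 FPKM), Lpin2 (74.3 ± 11.2 FPKM), Lpin1 (16.04 ± 3.35 FPKM), Dgat1 (8.79 ± 0.975 FPKM), Mogat1 (5.68 ± 2.42 FPKM), Lpin3 (2.02 ± 0.389 FPKM) and Mogat2 (0.233 ± 0.157 FPKM). Gpam and Lpin2 overlap there, while Lpin1 stands well below them. Tables were deposited apart, so no test was made between lines or tissues.

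**Figure D1:**
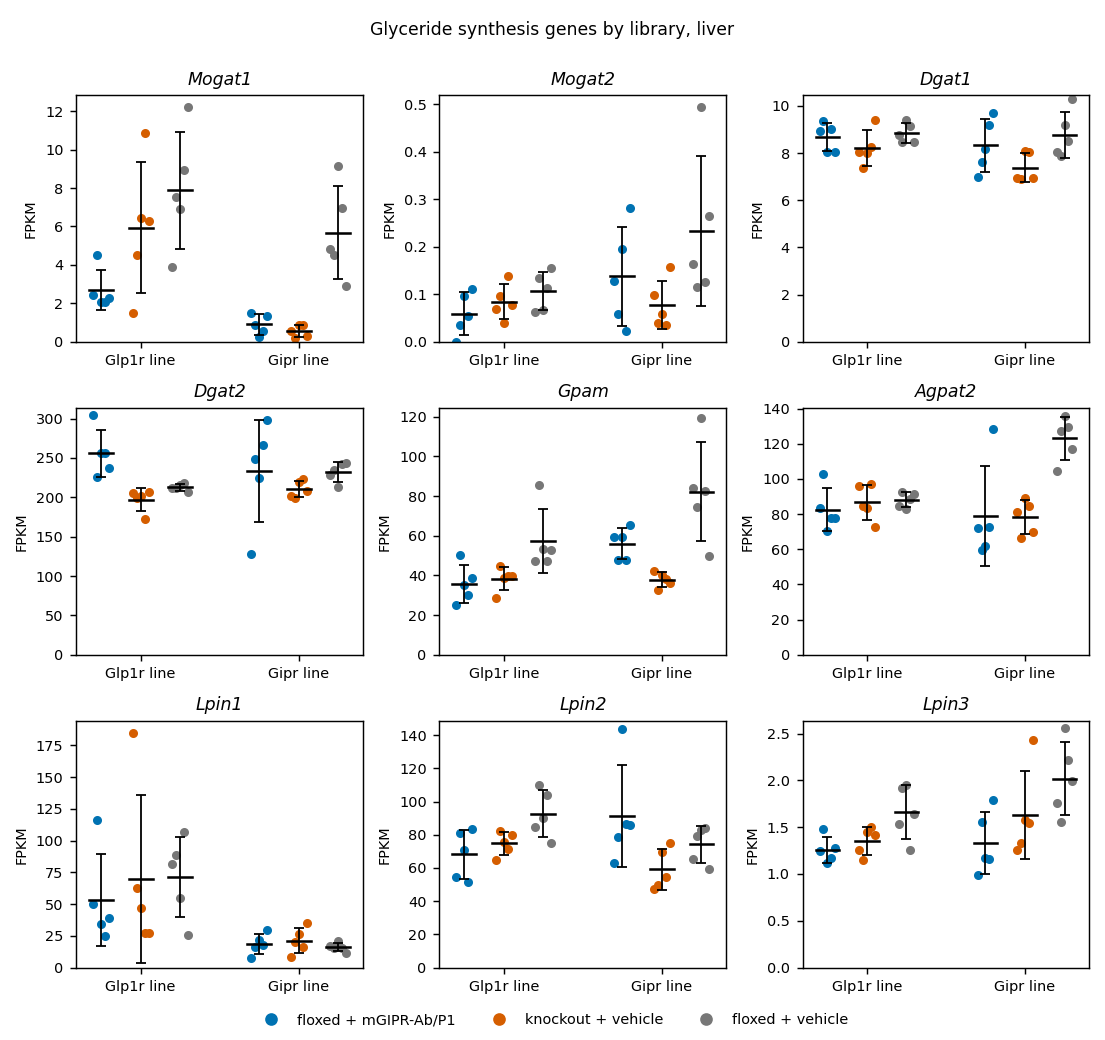
Levels of the 9 genes in liver in FPKM on a linear axis, 1 panel per gene. Points are libraries, black lines with bars are means ± SD (n = 5), and within each line the groups run floxed with mGIPR-Ab/P1, knockout with vehicle, floxed with vehicle. Mogat1 in the Gipr line is at most 1.52 FPKM in conjugate-treated and knockout mice and at least 2.90 FPKM in vehicle mice.

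Adipose tissue of vehicle mice listed Dgat2 at 1153 ± 288 FPKM in the Glp1r line and 969 ± 147 FPKM in the Gipr line. Agpat2 came next, at 489 ± 153 and 384 ± 46.0 FPKM in these lines, then Dgat1 (99.5 ± 23.6 and 76.3 ± 6.19 FPKM) and Lpin1 (98.6 ± 19.6 and 69.4 ± 7.11 FPKM), whose spreads overlap. Gpam was at 22.4 ± 3.81 and 22.7 ± 3.12 FPKM, and Mogat1 at 9.68 ± 2.38 and 8.15 ± 1.04 FPKM. Mogat2, Lpin3 and Lpin2 had means of 4.53 to 6.38 FPKM, with neighbouring spreads that overlap. Set beside liver with no test, these means were higher in both lines for Dgat2, Dgat1, Agpat2, Mogat2, Lpin3, Lpin1 and Mogat1. They were lower for Gpam and Lpin2. Spreads of the tissues overlapped for Mogat1 in both lines and for Lpin1 in the Glp1r line. Mogat2 was at 6.09 and 5.86 FPKM in the Glp1r and Gipr lines, against 0.107 and 0.233 FPKM in liver.

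**Figure D2:**
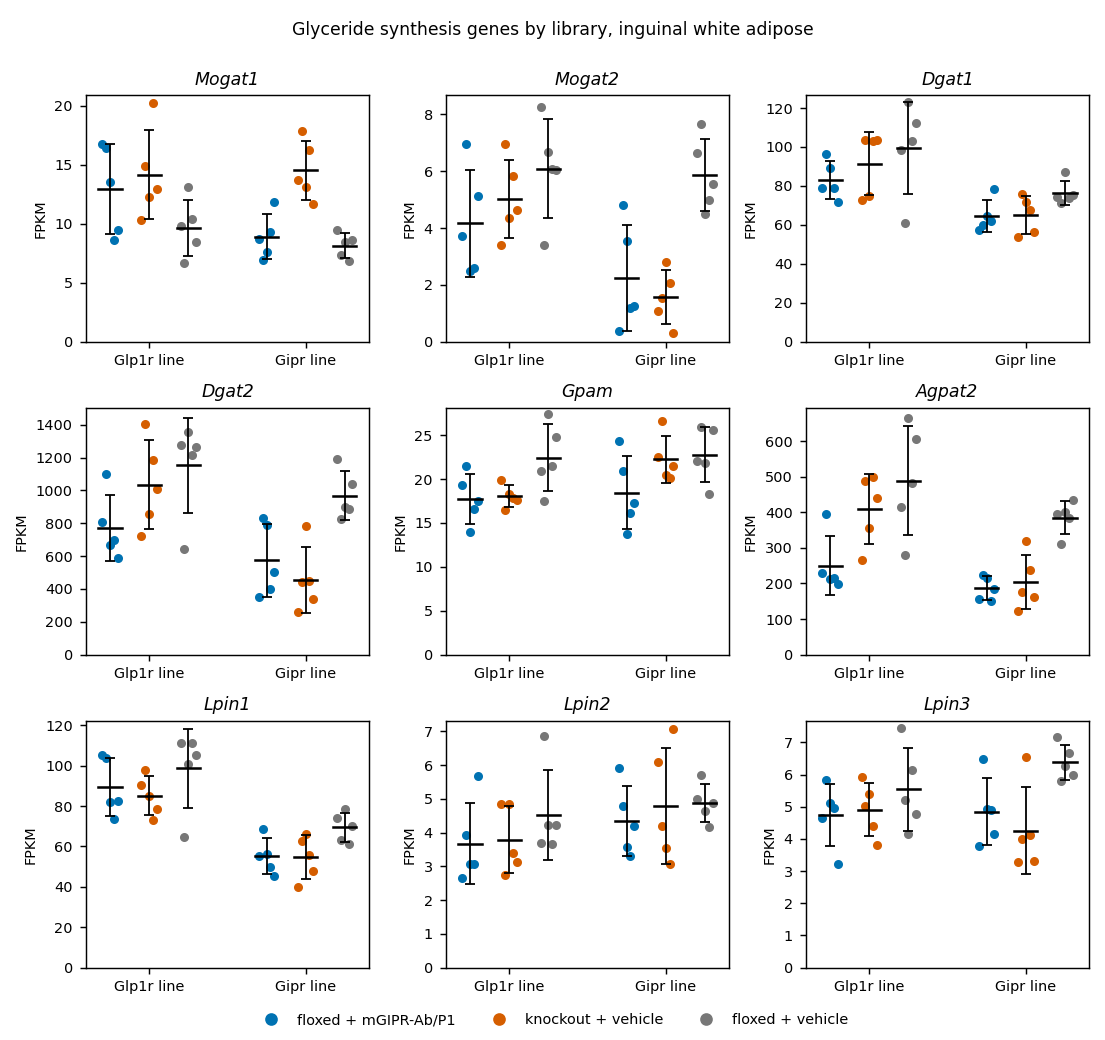
Levels of the 9 genes in inguinal white adipose tissue in FPKM on a linear axis, drawn as for liver (points are libraries, lines with bars are means ± SD, n = 5). Mogat1 in the Gipr line lies at 11.7 to 17.8 FPKM in GiprSyn-/- mice and at 6.88 to 9.47 FPKM in vehicle mice.

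At least 1 member passed the test in 5 of the 8 comparisons with vehicle. Conjugate-treated Glp1rfl/fl livers had 4 of 8 tested members called, 3 lower and 1 higher, where 10.4% of all genes tested were called, 4.69% lower and 5.68% higher. In Gipr-line livers 2 of 8 members fell under the conjugate, where 4.34% of all genes were called (3.17% lower), and 3 of 8 fell in GiprSyn-/- mice, where 10.4% were called (8.92% lower). In Gipr-line adipose 2 of 9 members fell under the conjugate (7.02% of all genes called, 2.76% lower), while 4 fell and 1 rose in GiprSyn-/- mice (12.3% of all genes called, 5.67% lower and 6.61% higher). The conjugate left 0 of 9 members called in Glp1r-line adipose (3.39% of all genes called). Glp1rWnt1-/- mice had 0 members and 0 genes called in limma in either tissue. At an unadjusted p under 0.05 were 1048 genes of liver (9.65%) and 593 of adipose (4.67%), where chance alone gives about 1 in 20. Set against its own knockout, the conjugate group differed in 1 member, Dgat2 in Glp1r-line liver (5.04% of all genes called, 4.14% higher). The counts were 0 in Gipr-line liver (1.31%), Glp1r-line adipose (0.134%) and Gipr-line adipose (0.00735%). Both comparisons with vehicle in a table share their vehicle libraries.

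**Figure D3:**
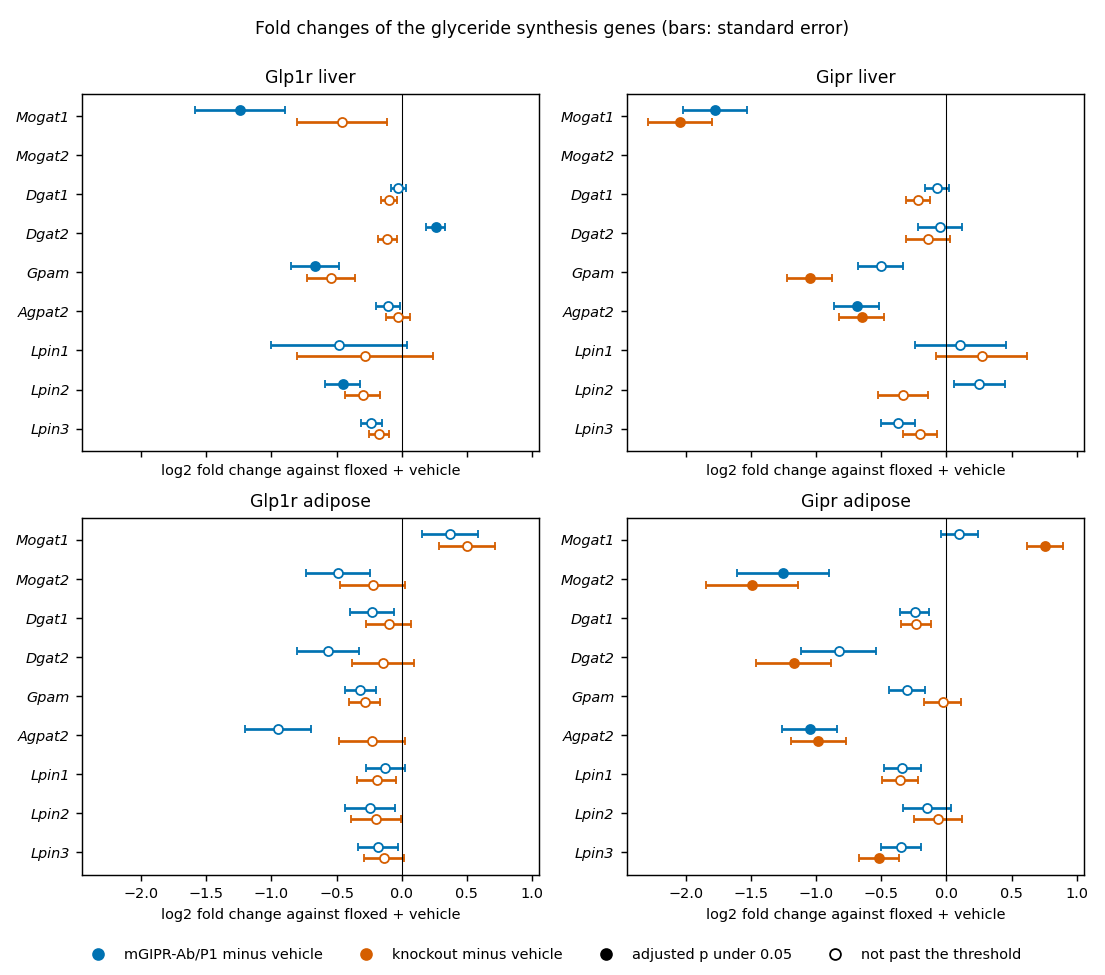
Log2 fold changes (on log2(FPKM + 1)) of the 9 genes against floxed vehicle mice in each of the 4 tables, with bars for the standard error. Filled points passed an adjusted p of 0.05 and open points did not. Mogat1 has the largest shifts in Gipr-line liver, at -1.78 for the conjugate and -2.04 for GiprSyn-/-, and lies right of 0 in GiprSyn-/- adipose at 0.75.

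Gpam, the entry enzyme of the glycerol-3-phosphate route, was lowered most in livers of GiprSyn-/- mice. Its FPKM there was 32.8, 36.0, 38.2, 40.0 and 42.2, against 50.02, 74.6, 82.6, 84.2 and 119.6 in vehicle livers. All knockout values lay below all vehicle values, as for 12.3% of all genes tested in this comparison in either direction. The log2 fold change was -1.05 ± 0.17 (limma, adjusted p = 0.00136), a mean of 37.9 ± 3.63 against 82.2 ± 25.0 FPKM. This call held in each of 10 fits that left out a library of these groups, with adjusted p between 2.0e-04 and 0.00579, and without the libraries rich in pancreatic transcripts (-1.34 ± 0.14, adjusted p = 0.00271). Giprfl/fl livers given the conjugate had 47.6, 47.9, 59.4, 59.5 and 65.4 FPKM, a log2 difference from vehicle of -0.50 ± 0.17 that did not pass (adjusted p = 0.114). They lay above every GiprSyn-/- library, by 0.55 ± 0.17 in log2, without passing the test either (adjusted p = 0.138, where 4.21% of all genes had groups that did not overlap).

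In Glp1r-line livers Gpam fell under the conjugate. The FPKM was 24.9, 29.9, 35.0, 38.7 and 50.1 in conjugate-treated mice and 47.4, 47.4, 52.6, 53.2 and 85.5 in vehicle mice, so the groups overlap at their edges. The log2 fold change was -0.67 ± 0.18 (limma, adjusted p = 0.0353). Glp1rWnt1-/- livers held 28.7, 38.8, 39.5, 39.6 and 44.7 FPKM, all below the vehicle libraries, yet the difference of -0.55 ± 0.18 was not called (adjusted p = 0.345), where 2.36% of all genes had groups that did not overlap. In adipose tissue Gpam was not called, with 13.8 to 27.4 FPKM over all 30 libraries.

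Agpat2, which makes phosphatidate, fell in adipose of the Gipr line under the conjugate and in the knockout. It stood at 150.5, 158, 185, 217 and 223 FPKM in conjugate-treated mice, against 309.8, 383, 394, 400.1 and 435 FPKM in vehicle mice. No conjugate library reached a vehicle one, as for 11.6% of all genes tested, and the log2 fold change was -1.05 ± 0.21 (limma, adjusted p = 0.0111). GiprSyn-/- adipose had 123, 163, 176, 237 and 319 FPKM, which touches the vehicle range, with a log2 fold change of -0.98 ± 0.21 (adjusted p = 0.0105). The call for the conjugate held in each of 10 fits without a library, with adjusted p between 0.00937 and 0.0328. It also held with a B cell marker term, at -0.83 ± 0.21 (adjusted p = 0.0299), and without the B cell-rich libraries, at -0.99 ± 0.17 (adjusted p = 0.00916). The call for the knockout held in neither of these, at -0.62 ± 0.24 (adjusted p = 0.218) with the term and -0.69 ± 0.19 (adjusted p = 0.0547) without those libraries.

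Glp1r-line adipose had 198, 213, 216, 230.5 and 395 FPKM of Agpat2 under the conjugate, against 279.6, 414, 482, 605 and 665 FPKM with vehicle. Conjugate replicate 2, at 395 FPKM, and vehicle replicate 2, at 279.6 FPKM, make the groups overlap. The log2 difference of -0.95 ± 0.25 did not pass (adjusted p = 0.0552). It passed without conjugate replicate 2 (adjusted p = 0.0184), without vehicle replicate 2 (0.0137), with a B cell marker term (0.00246) and without the B cell-rich libraries (0.00663). Glp1rWnt1-/- adipose spanned 266.5 to 499 FPKM and was not called (adjusted p = 0.983).

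Livers of the Gipr line also held less Agpat2 in both groups set against vehicle. The FPKM was 66.6, 69.6, 81.1, 84.6 and 89.1 in GiprSyn-/- mice and 105, 117, 127, 129.7 and 136 in vehicle mice. These groups did not overlap, as for 12.3% of all genes tested in either direction. The log2 fold change was -0.65 ± 0.17 (limma, adjusted p = 0.0247). Conjugate-treated Giprfl/fl livers had 59.5, 61.7, 71.8, 72.5 and, in replicate 5, 129 FPKM, for a log2 fold change of -0.69 ± 0.17 (adjusted p = 0.0381). Both calls were close to the threshold: without 1 library the adjusted p ran between 0.0256 and 0.0741 for the knockout, lost in 4 of 10 fits, and between 6.9e-04 and 0.0972 for the conjugate, lost in 7 of 10. Without the libraries rich in pancreatic transcripts neither passed (adjusted p = 0.174 and 0.544). The knockout call was also lost with no filter on low values (0.0603), with median-of-ratios scaling (-0.50 ± 0.18, 0.13) and with quantile normalization (-0.48 ± 0.16, 0.102), and the conjugate call with no filter (0.0914), median-of-ratios scaling (0.0569), a depth term (0.0613) and a fit of those groups alone (0.101). In the Glp1r line the levels of 70.4 to 103 FPKM under the conjugate, 72.7 to 97.2 FPKM in knockouts and 83.0 to 92.6 FPKM with vehicle were not called apart.

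Among the lipins, which turn phosphatidate into diacylglycerol, Lpin2 fell in Glp1r-line livers under the conjugate. It stood at 51.4, 54.4, 70.9, 80.8 and 83.4 FPKM in conjugate-treated mice and 75.2, 84.9, 90.0, 104 and 110.2 FPKM in vehicle mice, with 2 conjugate libraries inside the vehicle range. The log2 fold change was -0.45 ± 0.14 (limma, adjusted p = 0.0466). In the Gipr line the conjugate group reached 62.7 to 144 FPKM of Lpin2, against 59.4 to 84.2 FPKM with vehicle, a log2 difference of 0.25 ± 0.19 that was not called (adjusted p = 0.521). The difference of these 2 effects, 0.71 ± 0.24, did not pass over all genes in limma (adjusted p = 0.839, where 0% of all genes were called). GiprSyn-/- livers held 47.1 to 74.8 FPKM of Lpin2 and were not called.

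Lpin1, which also acts as a transcriptional coactivator, was the most variable member between libraries of the same group in Glp1r-line liver in the knockout and vehicle groups, while Mogat2 varied more in the conjugate group (coefficients of variation of 68.7% and 76.9%). Its level in Glp1r-line livers ran between 25.2 and 116 FPKM under the conjugate, 26.8 and 185 FPKM in Glp1rWnt1-/- mice, and 25.9 and 106 FPKM with vehicle. The standard error of 0.52 on each log2 difference there was the largest of any member in that table. In Gipr-line liver Mogat1 and Mogat2 varied more than Lpin1 in each group, and in adipose the coefficient of variation of Lpin1 was at most 19.9% in any group. Gipr-line livers had less of it in every group, at 7.45 to 29.8, 8.26 to 35.1 and 11.7 to 21.0 FPKM in conjugate, knockout and vehicle mice. Lpin1 was called in none of the 12 comparisons. In Gipr-line adipose it had 45.3 to 68.8 FPKM under the conjugate and 40.1 to 66.4 FPKM in GiprSyn-/- mice, against 61.3 to 78.4 FPKM with vehicle, at adjusted p of 0.157 and 0.103. Of 15 listed circadian clock genes, among which Lpin1 is not counted, 14 were tested in Glp1r-line and 13 in Gipr-line liver. Of these 0 were called in the 4 liver comparisons with vehicle, where 0% (Glp1rWnt1-/-) to 10.4% of all genes were called. In Gipr-line adipose 14 were tested. There 3 rose under the conjugate (4.26% of all genes higher) and 4 in the knockout (6.61%).

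Lpin3, the scarcest lipin in liver, passed the test in Gipr-line adipose of the knockout. Its FPKM was 3.29, 3.30, 3.99, 4.14 and 6.55 in GiprSyn-/- mice, against 5.80, 5.99, 6.25, 6.67 and 7.16 in vehicle mice. Knockout replicates other than the highest lay below every vehicle library, and the log2 fold change was -0.52 ± 0.15 (limma, adjusted p = 0.0405). The call was lost in 8 of 10 fits that left out a library (adjusted p up to 0.103). It was also lost with the B cell marker term (0.606), without the B cell-rich libraries (0.209), and with no filter (0.0758), a mean of at least 5 FPKM (0.0529), a depth term (0.0703), the library number series (0.0675) or those groups alone (0.0528). Under the conjugate the values of 3.79, 4.14, 4.91, 4.91 and 6.47 FPKM gave an adjusted p of 0.179.

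Mogat1 showed the largest changes of any member, in Gipr-line livers. It passed the filter there through the vehicle group, with 2 conjugate, 0 knockout and 5 vehicle libraries at 1 FPKM or more. The conjugate and knockout means, 0.911 and 0.561 FPKM, lie below that level. Conjugate-treated mice had 0.239, 0.575, 0.855, 1.37 and 1.52 FPKM and GiprSyn-/- mice 0.219, 0.287, 0.558, 0.870 and 0.872 FPKM, against 2.90, 4.52, 4.85, 6.97 and 9.15 FPKM with vehicle. Neither group reached the lowest vehicle library, as for 4.93% of all genes under the conjugate and 12.3% in the knockout. The means were 6.23-fold lower under the conjugate and 10.1-fold lower in the knockout. On the log2(FPKM + 1) scale this came to -1.78 ± 0.25 (limma, adjusted p = 0.00238) and -2.04 ± 0.25 (adjusted p = 1.7e-04). Without 1 library the adjusted p stayed between 0.00127 and 0.0102 for the conjugate and between 1.5e-04 and 8.5e-04 for the knockout. Without the 5 libraries rich in pancreatic transcripts, which leaves 3 conjugate, 4 knockout and 3 vehicle libraries, the knockout difference was -2.35 ± 0.29 (adjusted p = 0.00425). The conjugate difference was then -2.001 ± 0.31 and no longer passed (adjusted p = 0.131). With a pancreas marker term over all 15 libraries both passed, at adjusted p of 0.00105 and 6.3e-05. Conjugate and knockout livers did not differ by more than their spread, at 0.27 ± 0.25 in log2 with a 95% interval of -0.26 to 0.79.

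In Glp1r-line livers Mogat1 fell under the conjugate as well. The FPKM was 2.07, 2.10, 2.27, 2.42 and 4.51 in conjugate-treated mice, 1.48, 4.54, 6.29, 6.44 and 10.9 in Glp1rWnt1-/- mice, and 3.88, 6.93, 7.51, 8.93 and 12.2 in vehicle mice. Conjugate replicate 2, at 4.51 FPKM, entered the vehicle range, and the log2 fold change was -1.24 ± 0.34 (limma, adjusted p = 0.0347). The knockout libraries covered nearly the whole range of the table and were not called (-0.46 ± 0.34, adjusted p = 0.717). The difference between the lines in the effect of the conjugate was -0.54 ± 0.44 (limma, adjusted p = 0.954).

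In adipose tissue of the Gipr line Mogat1 rose in the knockout. GiprSyn-/- mice had 11.7, 13.1, 13.7, 16.3 and 17.8 FPKM, above all vehicle libraries at 6.88, 7.33, 8.42, 8.66 and 9.47 FPKM, as for 11% of all genes in either direction. The log2 fold change was 0.75 ± 0.14 (limma, adjusted p = 0.00541), and it held in each of 10 fits without a library (adjusted p between 0.00689 and 0.0176), with the B cell marker term (0.87 ± 0.18, adjusted p = 0.0296) and without the B cell-rich libraries (0.87 ± 0.16, adjusted p = 0.0143). Conjugate-treated mice, at 6.95, 7.59, 8.69, 9.33 and 11.9 FPKM, did not differ from vehicle by more than their spread (0.10 ± 0.14, adjusted p = 0.682). Set against the knockout the log2 difference was -0.66 ± 0.14, with an unadjusted p of 3.0e-04 that did not pass over all genes in limma (adjusted p = 0.558). Glp1r-line adipose held 8.63 to 16.8 FPKM under the conjugate, 10.3 to 20.2 FPKM in Glp1rWnt1-/- mice and 6.71 to 13.1 FPKM with vehicle, and neither difference from vehicle was called.

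Mogat2, the intestinal form of the enzyme, was at most 0.494 FPKM in any liver library and was not tested there. In Gipr-line adipose it fell in the knockout, with 0.306, 1.08, 1.53, 2.08 and 2.80 FPKM in GiprSyn-/- mice against 4.51, 4.97, 5.54, 6.64 and 7.66 FPKM with vehicle. The groups did not overlap, as for 11% of all genes tested in either direction, and the log2 fold change was -1.49 ± 0.35 (limma, adjusted p = 0.0166). Conjugate-treated mice had 0.394, 1.19, 1.27, 3.56 and 4.82 FPKM, of which the highest entered the vehicle range, for -1.25 ± 0.35 (adjusted p = 0.0462). That call was lost in 8 of 10 fits without a library, with adjusted p up to 0.107, and with no filter (0.0944), pseudocount 0.1 (0.0797), a common sum (0.0505) or the library number series (0.0732). With a B cell marker term the adjusted p was 0.144 for the conjugate and 0.261 for the knockout, and without the B cell-rich libraries it was 0.0521 and 0.0507. In the Glp1r line Mogat2 was at 2.50 to 6.94, 3.42 to 6.94 and 3.42 to 8.27 FPKM in conjugate, knockout and vehicle mice and was not called.

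Dgat2, which adds the last acyl chain, was the member that rose in liver. In Glp1r-line livers given the conjugate it stood at 226, 238, 256, 257 and 304 FPKM, against 172, 199, 201, 206 and 206 FPKM in Glp1rWnt1-/- livers and 207, 211, 212, 215 and 218 FPKM in vehicle livers. Each conjugate library lay above every library of the other groups. Differences were small, at 0.26 ± 0.07 in log2 from vehicle (limma, adjusted p = 0.0352, where 9.15% of all genes had groups that did not overlap) and 0.37 ± 0.07 from the knockout (adjusted p = 0.0165, where 5.53% did). The second held in each of 10 fits without a library (adjusted p between 0.00845 and 0.0418) and was lost with median-of-ratios scaling (0.0502), with a depth term (0.416) and in a fit of those groups alone (0.0588). Gipr-line livers given the conjugate had 127, 224, 249, 267 and 298 FPKM, around the 213 to 243 FPKM of vehicle livers, and were not called (adjusted p = 0.929).

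In Gipr-line adipose Dgat2 fell in the knockout. GiprSyn-/- mice had 262, 338, 443, 451 and 786 FPKM, all below the 823, 889, 900.3, 1041 and 1190.1 FPKM of vehicle mice. Groups did not overlap for 11% of all genes in this comparison, in either direction. The log2 fold change was -1.17 ± 0.29 (limma, adjusted p = 0.0185), and without vehicle replicate 1 the adjusted p was 0.0548. With a B cell marker term it was -0.69 ± 0.33 (adjusted p = 0.335), and without the B cell-rich libraries -0.83 ± 0.26 (adjusted p = 0.0834). Conjugate-treated mice had 349, 398, 505, 789 and 834 FPKM, a log2 difference of -0.83 ± 0.29 that did not pass (adjusted p = 0.0939). Glp1r-line adipose had 589, 666, 699, 809 and 1101 FPKM under the conjugate, against 1217 to 1359 FPKM in 4 vehicle libraries and 645 FPKM in vehicle replicate 2, a B cell-rich library. The difference of -0.56 ± 0.24 did not pass (adjusted p = 0.224), but passed without vehicle replicate 2 (0.0338), with a B cell marker term (0.00618) and without the B cell-rich libraries (0.0126). Dgat1 was called in none of the 12 comparisons, at 6.92 to 10.3 FPKM over all liver libraries and 53.8 to 123 FPKM over all adipose libraries.

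The effect of the conjugate differed between the lines for 0 of the members tested in limma, in liver or adipose, where 0% of all genes passed. At an unadjusted p under 0.05 were 660 genes of liver (5.71%) and 554 of adipose (3.91%), where chance alone gives about 1 in 20. Beside Lpin2, Agpat2 in liver had an unadjusted p under 0.05, at -0.59 ± 0.20 for the Gipr line minus the Glp1r line (limma, adjusted p = 0.839).

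Several library measures moved with these results. The conjugate group of Glp1r-line liver was sequenced less deeply, at 33.98 ± 1.58 M estimated fragments against 49.9 ± 2.94 M with vehicle (two-sided exact permutation test on log2 depth, p = 0.00794, the smallest possible, adjusted p = 0.0476). Its erythrocyte markers, 3 of 5 of which fell and none of which was at 0, summed to 475 to 889 FPKM, against 1020 to 1520 FPKM, and its mammary epithelium markers to 125 to 181 FPKM, against 209 to 313 FPKM (2 of 8 fell; Krt5, Csn2 and Wap were at 0). Of these mammary markers, 6 of 8 were below 0.1 FPKM in every conjugate library and 5 of 8 in every vehicle library. Mitochondrial genes took 11.4% of the FPKM of the conjugate group, against 13%. With estimated depth as a term, 0 members and 0 genes were called there in limma. With no filter on low values none of the 4 member calls there passed, at adjusted p between 0.0773 for Dgat2 and 0.118 for Lpin2. Those of Dgat2 and Lpin2 were lost with a common sum (0.0774 and 0.0509), that of Dgat2 with median-of-ratios scaling (0.0579), and those of Gpam and Lpin2 in a fit of those groups alone (0.0517 and 0.0751). Leaving out 1 library in turn lost the calls of Mogat1 and Dgat2 in 8 of 10 fits, of Lpin2 in 7 and of Gpam in 6, and depth and group cannot be told apart. In Gipr-line liver of the knockout, the sums of 7 of the 18 marker lists lay below every vehicle library. Hepatocyte markers summed to 49800 to 57080 FPKM in GiprSyn-/- mice and 57120 to 66670 FPKM with vehicle, with 1 of 9 higher and 1 lower. Erythrocyte markers summed to 634 to 859 FPKM against 993 to 1680 FPKM, with 0 of 5 called. The sums of lipid-associated macrophage markers were 26.7 to 31.3 FPKM against 38.4 to 104 FPKM (2 of 6 fell), of adipocyte markers 17.9 to 26.5 FPKM against 35.3 to 44.9 FPKM (1 of 8), and of brown or beige adipocyte markers 66.3 to 91.7 FPKM against 95.7 to 128 FPKM (2 of 7). The brown or beige list includes Ppara, at 51.08 ± 6.79 against 71.51 ± 12.36 FPKM. It also includes Cidea, at 0.760 ± 0.780 against 12.65 ± 15.93 FPKM. Enterocyte markers (93.7 to 112 FPKM against 176 to 208 FPKM) and mammary epithelium markers (113 to 157 FPKM against 163 to 287 FPKM) had 1 marker lower each, with Sis, Csn2, Csn3 and Wap at 0. In vehicle livers 4 of 7 enterocyte and 4 of 8 mammary epithelium markers were below 0.1 FPKM in every library. Under the conjugate the same livers had 3 of 5 erythrocyte markers lower (406 to 1170 FPKM). In GiprSyn-/- adipose 6 of 8 B cell markers rose, with sums of 106 to 733 FPKM against 9.14 to 215 FPKM with vehicle. There hepatocyte markers summed to 316 to 565 FPKM against 37.0 to 254 FPKM (1 of 9 rose), endothelial markers to 259 to 345 FPKM against 371.5 to 450.5 FPKM (1 of 7 rose and 1 fell), and pancreas acinar markers to 10.5 to 36.9 FPKM against 49.9 to 69.9 FPKM (1 of 11 fell, with Try4 and Clps at 0), with no overlap between the groups. Lipid-associated macrophage markers, 4 of 6 of which fell, did not overlap either (79.3 to 135 FPKM against 177 to 329 FPKM), and 4 of 7 Schwann cell markers rose and 1 fell (202 to 352 FPKM against 159 to 212 FPKM). No marker other than those named was at 0 in all libraries. Within each group of Gipr-line adipose, however, 9 of 11 pancreas acinar markers were below 0.1 FPKM in every library. Under the conjugate, Gipr-line adipose had 0 of 8 B cell markers called (23.7 to 657 FPKM), 5 of 7 Schwann cell markers higher (217 to 374 FPKM) and 7.89% of its FPKM in mitochondrial genes, against 10.5% with vehicle. Adipocyte markers summed to 17400 to 30800 FPKM under the conjugate, 18600 to 29900 FPKM in GiprSyn-/- mice and 20100 to 22700 FPKM with vehicle. Apart from the fits with these terms and without these libraries, their part in the results was not tested. In these bulk samples, fewer cells of a type and less RNA per cell cannot be told apart. The sum of a list named for a cell type foreign to the tissue does not show that such cells were present.

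The balance between isoenzymes can be read within a library. Mogat1 made up a median of 92.1% of the summed FPKM of Mogat1 and Mogat2 in GiprSyn-/- adipose and 88.7% under the conjugate, against 58.8% with vehicle. All GiprSyn-/- libraries (82.4% to 97.4%) lay above all vehicle libraries (48.9% to 65.1%), while the conjugate libraries spanned 59.0% to 95.7%. In Glp1r-line adipose the medians were 77.0% under the conjugate and 73.9% in the knockout, against 63.1% with vehicle. Dgat2 took 94.8% to 97.2% of the Dgat1 and Dgat2 total in every liver library. In adipose its median share was 86.6% under the conjugate, 85.7% in GiprSyn-/- mice and 92.3% with vehicle in the Gipr line, and 89.9%, 92.0% and 91.9% in the same order in the Glp1r line. The lipins differ by tissue: Lpin1 held medians of 85.8% to 91.9% of the lipin total in the adipose groups and 16.02% to 44.2% in the liver groups, where Lpin2 held 54.8% to 82.0%.

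**Figure D4:**
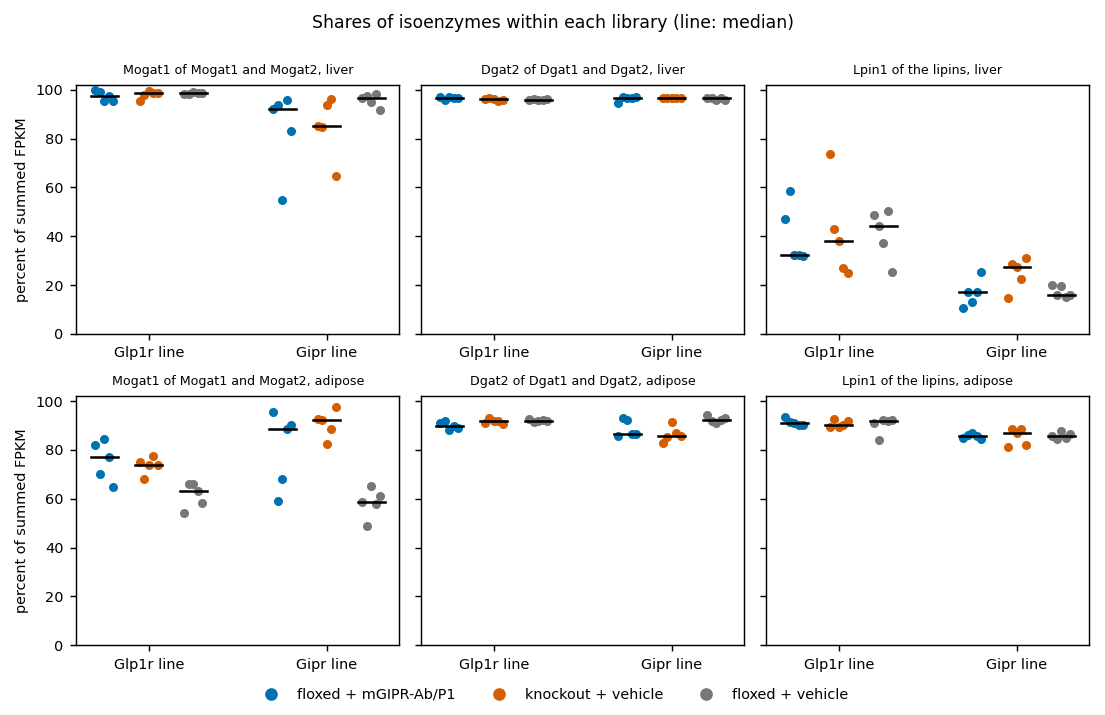
Share of Mogat1 in Mogat1 plus Mogat2, of Dgat2 in Dgat1 plus Dgat2, and of Lpin1 in the 3 lipins, as percent of summed FPKM within each library. Points are libraries, lines are medians, and groups run floxed with mGIPR-Ab/P1, knockout with vehicle, floxed with vehicle. The Mogat1 share of the Gipr line in adipose has medians of 88.7%, 92.1% and 58.8% in these groups.

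Over the 30 adipose libraries, centred within each table, Dgat2 and Mogat2 moved together (Pearson r = 0.889, Spearman rho = 0.913, on log2(FPKM + 1)), as did Dgat2 and Agpat2 (r = 0.901, rho = 0.871). Without the 2 libraries farthest from the median r was 0.879 and 0.891, and within groups it was 0.802 and 0.883. Mogat1 and Mogat2 did not (r = -0.268), with r of 0.231 in the Glp1r line and -0.532 in the Gipr line (15 libraries each). Dgat2 and Mogat2 lie next to each other on chromosome 7 of RefSeq build GRCm38.p6, with 0 genes between them. Over the 30 liver libraries Mogat1 varied with Gpam (r = 0.784) and Agpat2 (r = 0.702), with lower values of 0.553 and 0.367 within groups. By line, r with Gpam was 0.65 (Glp1r) and 0.867 (Gipr), and with Agpat2 0.361 (Glp1r) and 0.838 (Gipr). These are descriptions, since the libraries of a group share treatment, depth and tissue make-up. Among genes tested in both lines, leaving out unnamed gene models, the closest to Mogat1 in liver were Hsd17b4 (r = 0.950), a peroxisomal oxidation enzyme, Cryz (0.940) and Suclg2 (0.939). Closest to Gpam in liver were Acsl5 (0.932), Elovl5 (0.908) and Cs (0.895), and closest to Agpat2 there Mrap (0.871), Ormdl3 (0.851) and Uck1 (0.851). In adipose the closest to Agpat2 were Slc25a1 (0.956), the mitochondrial citrate carrier, Mrap (0.932) and Wdr93 (0.928), and the closest to Mogat2 were Col15a1 (0.926), Tuba1a (0.920) and Tstd3 (0.914), each over 30 libraries.

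**Figure D5:**
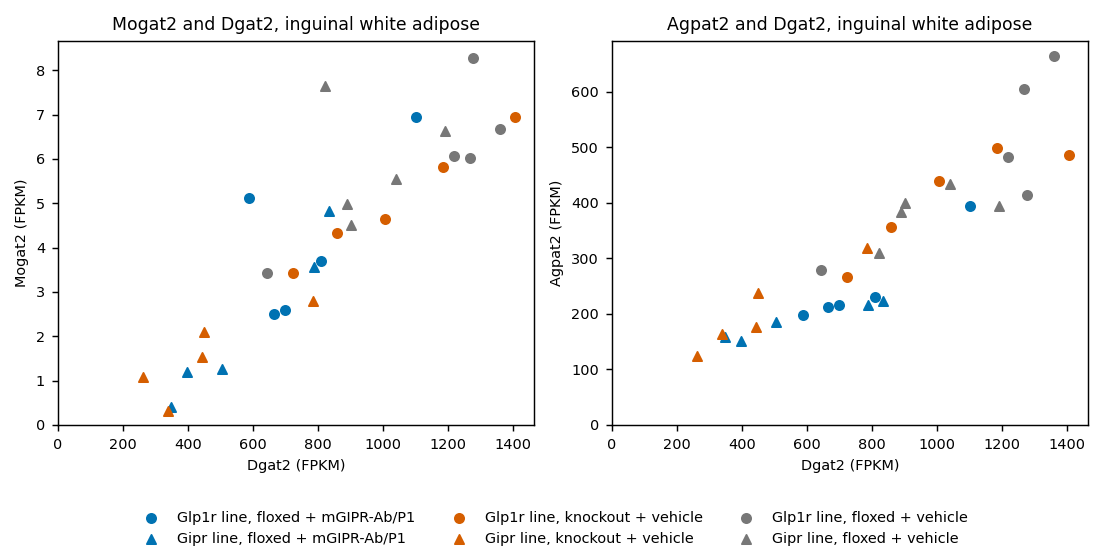
Mogat2 (left) and Agpat2 (right) against Dgat2 in each adipose library, all in FPKM on linear axes. Circles are Glp1r-line and triangles Gipr-line libraries, coloured by group. GiprSyn-/- libraries lie at 262 to 786 FPKM of Dgat2 and vehicle libraries of that line at 823 to 1190.1 FPKM.

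The rest of the pathway was read from 9 lists chosen with earlier results of these data known. In Gipr-line livers the lipid droplet and VLDL list stood lowest in the knockout. The counts below stand against 8.92% of all genes lower in this comparison, a number of 999 genes that came to 435 with median-of-ratios scaling and 432 with quantile normalization. Of its 14 tested genes 10 fell in GiprSyn-/- mice, with a median log2 fold change of -0.66, where the median of all genes was -0.11. Cidec, which fuses lipid droplets, was at 2.11 ± 0.909 FPKM in GiprSyn-/- mice and 36.8 ± 27.9 FPKM with vehicle (log2 fold change -3.32 ± 0.46, limma, adjusted p = 3.9e-04). The droplet coat gene Plin4 (-1.95 ± 0.34, adjusted p = 0.00208) and Cidea (-2.28 ± 0.64, adjusted p = 0.0339) fell as well. Glyceride hydrolysis had 4 of 13 genes lower and 1 higher (median -0.48), among them G0s2, an inhibitor of adipose triglyceride lipase (-1.54 ± 0.44), the lysosomal lipase Lipa (-0.91 ± 0.16) and the monoglyceride lipase Mgll (-0.82 ± 0.12). Of 7 other glycerol-3-phosphate and lysophosphatidate acyltransferases 2 fell, Gpat3 at 1.30 ± 0.478 FPKM in the knockout against 5.76 ± 1.14 FPKM (-1.56 ± 0.20, adjusted p = 2.2e-04) and Lclat1 (-0.34 ± 0.09). Fatty acid activation had 3 of 8 lower, led by the acyl-CoA synthetase Acsl5 (-0.74 ± 0.13), and glycerol-3-phosphate supply 2 of 5, glycerol kinase Gk (-0.86 ± 0.10, adjusted p = 1.7e-04) and Gpd1 (-0.74 ± 0.21). Of 16 phospholipid branch genes 4 fell, 1 of 3 other phosphatidate phosphatases (Plpp3), and 3 of 18 regulators (against 8.92% of all genes lower), Pparg (-1.15 ± 0.29), Insig2 (-0.95 ± 0.17) and Ppara (-0.47 ± 0.12).

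Gipr-line livers given the conjugate had 3.17% of all genes lower, and the difference between the counts here and those of the knockout, which share the vehicle libraries, was not tested. Here 2 of 14 lipid droplet genes fell (median -0.34, all genes -0.03), Cidec at 4.28 ± 2.45 FPKM against 36.8 ± 27.9 FPKM with vehicle (-2.65 ± 0.46, limma, adjusted p = 0.00689) and the droplet coat gene Plin2 (-1.04 ± 0.16, adjusted p = 0.00362). Gpd1 (-0.82 ± 0.21) and Insig2 (-1.05 ± 0.17) fell, as the genes called in the lists of glycerol-3-phosphate supply and regulators. The lists of other acyltransferases, fatty acid activation, phospholipid branch, other phosphatases and hydrolysis had 0 called. Against the knockout, conjugate-treated livers had higher Gpat3 (1.06 ± 0.20, adjusted p = 0.0158), Gk (0.52 ± 0.10) and Tm6sf2, a gene of VLDL loading (0.97 ± 0.17, adjusted p = 0.0119).

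Glp1r-line livers given the conjugate, with 4.69% of all genes lower and 5.68% higher, had 5 of 14 lipid droplet genes lower (median -0.31, all genes 0.01), led by Cidec at 12.6 ± 10.4 FPKM against 44.6 ± 12.5 FPKM with vehicle (-2.07 ± 0.62, limma, adjusted p = 0.0448). Plin2 (-0.79 ± 0.20) and Plin4 (-0.71 ± 0.19) fell as well. Acsl5 fell (-0.65 ± 0.13, adjusted p = 0.0103) and the fatty acid transporter Slc27a2 rose (0.20 ± 0.05). Of 18 regulators 4 rose and 2 fell, with Mlxipl, the carbohydrate response factor ChREBP, higher by 0.52 ± 0.08 (adjusted p = 0.00396) and Insig2 at -1.08 ± 0.26. Of 7 other acyltransferases 2 fell, Lclat1 (-0.27 ± 0.05) and Agpat3 (-0.21 ± 0.05), and Gpd1 fell (-0.55 ± 0.16). Hydrolysis had the hepatic lipase gene Lipc higher (0.44 ± 0.10) and Ces1g lower (-0.49 ± 0.13), and the phospholipid branch had 0 of 16 called. These calls share the depth difference described above.

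In adipose tissue the glycerol-3-phosphate supply changed in both directions, with 1 gene higher and 1 lower of 5 under the conjugate in each line, and 2 higher and 2 lower in GiprSyn-/- mice. Pck1, which feeds glyceroneogenesis, rose in Gipr-line adipose to 661 ± 206 FPKM under the conjugate and 740.4 ± 159 FPKM in GiprSyn-/- mice, against 266 ± 118 FPKM with vehicle, with log2 fold changes of 1.35 ± 0.27 (limma, adjusted p = 0.0111) and 1.54 ± 0.27 (0.0042). Gk fell in both, with -1.10 ± 0.13 (adjusted p = 4.9e-04) and -0.94 ± 0.13 (0.00118). Glp1r-line adipose under the conjugate had Pck1 higher (1.34 ± 0.21, adjusted p = 0.00702) and Gk lower (-1.03 ± 0.14, adjusted p = 0.00367). Gpat4, a glycerol-3-phosphate acyltransferase of the endoplasmic reticulum, rose in Gipr-line adipose under the conjugate (0.36 ± 0.10) and in the knockout (0.43 ± 0.10). Acsl1 fell (-0.73 ± 0.16 and -0.71 ± 0.16), as did Plin2 (-0.83 ± 0.23 and -1.21 ± 0.23), Hilpda, another inhibitor of adipose triglyceride lipase (-1.25 ± 0.29 and -1.69 ± 0.29), and Insig1 (-1.29 ± 0.21 and -1.22 ± 0.21). Of 10 hydrolysis genes 2 rose and 2 fell in each of these comparisons: the conjugate group had lower Pnpla3 (-1.32 ± 0.29) and Lpl (-0.94 ± 0.20) and a higher level of the carboxylesterase Ces1f (0.85 ± 0.22), and the knockout had Lipa lower (-0.85 ± 0.19) and Ces1f (0.90 ± 0.22) and Ces1d (0.83 ± 0.18) higher. The median of all genes was 0.11 under the conjugate and 0.09 in the knockout, with 7.02% and 12.3% of all genes called. Of the 9 members, 8 had a fold change below 0 in each of these comparisons, with medians of -0.34 and -0.36. Among all 13604 genes tested, 4505 and 5266 did. The comparisons share their vehicle libraries. In Glp1r-line adipose 8 of 9 members lay below 0 in both comparisons with vehicle as well, as did 5090 (conjugate) and 4877 (knockout) of 12686 genes.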

How the data were processed

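The authors deposited 1 table per line and tissue with FPKM values, estimated with RSEM per the submitters' processing notes. Which aligner, build, annotation and RSEM version they used is not given in the sources used here. Per the labels' protocols the libraries were stranded and poly(A)-selected. FPKM keeps no counts, so depth was estimated from the value of a single fragment in genes of 1500 to 6000 bases, with 200 bases taken off each length and whole multiples accepted within 5%. FPKM was turned into log2(FPKM + 1), and genes with at least 1 FPKM in at least 5 of 15 libraries were tested with limma 3.58.1 in R 4.3.3 (moderated linear model with a mean-variance trend, all 15 libraries of a table, two-sided, Benjamini-Hochberg over all genes tested). The fit was tested on simulated data. Interaction contrasts used all 30 libraries of a tissue. Marker scores, the mean log2(FPKM + 1) of a list, and log2 depth were compared by exact permutation. Python 3.11.15, pandas 2.3.3 and matplotlib 3.10.9 handled tables and figures.

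All 9 members were described. From each pathway list up to 3 called genes per comparison, those with the largest fold changes, could be named. For each member called in at least 2 of the 4 comparisons with vehicle of a tissue, the 3 genes with the highest Pearson r were named. These were taken from genes tested in both lines, leaving out unnamed gene models. The members and lists were chosen with earlier results of these data known. The labels number the replicates but do not say that the animals were housed or processed in any shared unit, so p-values measure the spread between these samples. Only between conjugate and GiprSyn-/- adipose was each conjugate library closest to the same-numbered knockout library (correlations of 0.331 to 0.707). The labels state no pairs, and these libraries also have close library numbers, such as 20390 and 20391 for replicate 5. What they share was not tested. The main fits do not use the replicate numbers. A replicate block changed no member call there, and the genes called went from 1 to 0. Against vehicle in Gipr-line adipose they went from 955 to 1335 for the conjugate and from 1670 to 2253 for the knockout. Same-numbered libraries had mean correlations of only 0.0076 and -0.0377 in these comparisons with vehicle. Alternatives covered pseudocount, filters, scaling, array weights, robust estimation, depth and marker terms, a replicate block, the 2 groups alone and leaving out each library. A term for the library number series was added in the Gipr line. Leaving out the B cell-rich (score above 5) and pancreas-rich (score above 7) libraries was chosen after seeing the data. In Gipr-line adipose the libraries kept had B cell scores of 1.76 to 4.06 under the conjugate, 3.47 to 4.00 in the knockout and 0.952 to 4.55 with vehicle.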

Additional observations from a re-analysis of the deposited data

Results flagged for a closer look

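Of 108 groups of 5 libraries, 9 had a library far from the other 4 by Dixon's criterion, where chance gives about 1 in 20 groups, or 5.4. In liver, Mogat1 stood at 4.51 FPKM in replicate 2 of the conjugate-treated Glp1rfl/fl mice, with the others at 2.07 to 2.42 FPKM. Dgat2 was at 172 FPKM in Glp1rWnt1-/- replicate 4 and at 199 to 206 FPKM in the others. Gpam reached 85.5 FPKM in Glp1rfl/fl vehicle replicate 2, against 47.4 to 53.2 FPKM. Agpat2 reached 129 FPKM in replicate 5 of the conjugate-treated Giprfl/fl mice, against 59.5 to 72.5 FPKM, and this library makes the groups overlap for that gene.

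In adipose, vehicle replicate 2 of the Glp1r line stood apart for 3 members: Dgat2 at 645 FPKM, Lpin1 at 64.5 FPKM (101 to 111 FPKM in the others) and Lpin2 at 6.87 FPKM (3.65 to 4.22 FPKM). Its B cell marker score was above 5. Agpat2 was at 395 FPKM in conjugate replicate 2 of that line, against 198 to 230 FPKM. Dgat1 was at 87.0 FPKM in vehicle replicate 3 of the Gipr line, against 71.1 to 75.4 FPKM.

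Mogat1 moved in opposite directions in the tissues of GiprSyn-/- mice, with a log2 fold change of -2.04 in liver and 0.75 in adipose and no overlap with vehicle in either. Groups did not overlap for 12.3% of all genes in that liver comparison and 11% in that adipose comparison. The difference between tissues was not tested.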

How the results depend on the processing

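No called member value changed direction under any alternative run. Among those not called, the direction changed 80 times over all settings. Fits without 1 library aside, Lpin1 in Glp1r-line liver under the conjugate (-0.48 against vehicle) ran between -0.60 and 2.83. Its difference from the knockout there (-0.20) ran between -0.28 and 2.84. Mogat1 in Gipr-line adipose under the conjugate (0.10) ran between -0.11 and 0.17. In Glp1r-line liver, conjugate against vehicle, 4 members were called, against 0 with no filter, 0 with a depth term, 2 with a common sum, 2 with those groups alone, and 0 to 5 without 1 library. Conjugate against knockout gave 1 there, 0 with median-of-ratios scaling, a depth term or those groups alone, and 1 to 2 without 1 library. In Gipr-line liver the conjugate gave 2 calls, 1 with no filter, a mean of at least 5 FPKM, median-of-ratios scaling, the replicate block, a depth term or the 2 groups alone, 0 without the pancreas-rich libraries, and 1 to 3 without 1 library. The knockout gave 3 calls, 5 with array weights, 2 with no filter, median-of-ratios scaling, quantile normalization, a mean of at least 5 FPKM or without the pancreas-rich libraries, and 2 to 3 without 1 library. Conjugate against knockout gave 0, 1 with array weights, and 0 to 1 without 1 library. In Glp1r-line adipose the conjugate gave 0 calls, 1 with a common sum, 7 with array weights, 4 with a B cell term, 4 without the B cell-rich libraries, and 0 to 3 without 1 library, and against the knockout 0, 4, 3 and 1 in the main, array weight, B cell term and B cell-rich settings. In Gipr-line adipose the conjugate gave 2 calls, 7 with array weights, 1 with pseudocount 0.1, no filter, a mean of at least 5 FPKM, a common sum, the library number series, a B cell term or without the B cell-rich libraries, and 1 to 3 without 1 library. The knockout gave 5 calls, 3 with a mean of at least 5 FPKM, 1 with a B cell term, 1 without the B cell-rich libraries, and 3 to 5 without 1 library, and conjugate against knockout 0, or 1 with array weights. A mean of at least 5 FPKM leaves out Mogat1 in Gipr-line liver and members of low adipose level; for the other settings the cause was not tested.

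Outside the comparison of conjugate and GiprSyn-/- adipose, same-numbered libraries were not each closest to one another. With the replicate block the call of Agpat2 in Gipr-line liver under the conjugate had an adjusted p of 0.0607 in limma. Scaling moved the share of higher calls among all genes. It was 13.9% in GiprSyn-/- liver, 39.4% with median-of-ratios scaling and 40.1% with quantile normalization, with the median of all genes at -0.11, 0.01 and 0.02. It was 27.0%, 37.5% and 41.5% in Gipr-line liver under the conjugate, 60.6%, 33.6% and 29.3% in Gipr-line adipose under the conjugate, 53.8%, 34.7% and 34.5% in GiprSyn-/- adipose, and 68.1%, 52.5% and 51.5% in Glp1r-line adipose under the conjugate. For conjugate against knockout it was 82.1%, 51.9% and 55.8% in Glp1r-line liver and 82.3%, 59.3% and 62.7% in Gipr-line liver (94.1% with a common sum), and with a common sum it was 41.7%, against 54.8%, in Glp1r-line liver under the conjugate. The number of genes called ran between 0 and 1676 in Glp1r-line liver under the conjugate (1126 as reported), 0 and 1333 in Gipr-line liver under the conjugate (486), 417 and 3333 in GiprSyn-/- liver (1160), 58 and 5556 in Glp1r-line adipose under the conjugate (430), 609 and 3618 in Gipr-line adipose under the conjugate (955) and 243 and 3723 in GiprSyn-/- adipose (1670). FPKM gives no counting error per gene, so how far depth limits Mogat2 in liver is not known.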
